A study of Mus musculus with 80 samples.

Results

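The clustered histone genes were all rows of the expression tables whose symbol begins with Hist1h, Hist2h, Hist3h or Hist4h. They made up 69 of the 24508 gene symbols, and comprised 6 H1, 19 H2A, 19 H2B, 12 H3 and 13 H4 genes. These genes encode the bulk histones that package newly made DNA. They are transcribed mainly in S phase, carry no introns in their usual form, and their mRNAs normally end in a conserved stem-loop bound by SLBP in place of a poly(A) tail. Their RNA is degraded when replication stops, so transcription and steady-state RNA can differ widely.

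The values came from mouse embryonic stem cells and embryoid bodies, made for a study of MLL2 (gene symbol Kmt2b), a methyltransferase of histone H3 lysine 4 that acts at promoters also marked by Polycomb. Knockout (KO) cells were a C57Bl/6 line with floxed Mll2 alleles and CreERT2, Mll2 F/F CreERT2/+, treated with 4-hydroxytamoxifen for 96 h. Wild type (WT) cells were the same line given the carrier, so both genotypes held the floxed alleles and the recombinase, and the deletion came together with the drug. Cells grew without feeders in serum and LIF, and embryoid bodies were formed in hanging drops, with day 0 being the stem cells. PRO-seq, a nuclear run-on that labels RNA at engaged polymerases, and day 0 RNA-seq were made from stem cells, and RNA-seq was also made at days 3, 6 and 9, with 2 libraries per genotype in each of the 5 tables. The labels do not state that the 2 libraries of a group were grown as separate cultures, and the spread behind every p-value may thus be technical.

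Recovered reads on genes numbered 16328491 to 20048187 per PRO-seq library and 29018994 to 34476635 per RNA library. Kmt2b itself had 6.67 and 7.27 FPKM in KO day 3 libraries, against 14.9 and 17.1 FPKM in WT day 3 libraries, and was called lower there and at day 6. At day 0 Kmt2b had 9.46 and 9.49 FPKM in KO cells, against 9.44 and 11.8 FPKM in WT cells, and in PRO-seq 13.8 and 15.8 FPKM in KO cells, against 11.9 and 13.9 FPKM in WT cells. Its whole-gene level therefore did not separate the genotypes in stem cells, and whether the counted exons include the deleted ones is not given in the sources used here. All 12 pluripotency markers were at 1 FPKM or more in every day 0 library.

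The histone genes are multi-copy, and this limits what a single member's value means. A group of 8 members (Hist1h2ao, Hist1h2ap, Hist1h2bq, Hist1h2br, Hist1h4m, Hist2h2aa1, Hist2h3c1 and Hist2h3c2) was listed at 0 in all 20 libraries, which left 61 members with a value. Hist1h2bq and Hist1h2br have identical RefSeq promoter windows, and how reads that match several copies were placed is not given in the sources used here. Values of single members are therefore uncertain wherever copies are near-identical, and sums over a histone type are given beside them. FPKM divides by gene length, and 4 members have models longer than 1000 bases against a median of 483 bases over the members. A longer model lowers the FPKM that the same number of reads gives. For Hist2h2aa2 the length behind FPKM was 1192 bases, against 596 in RefSeq, and for Hist1h4n it was 732, against 406. For Hist1h2bc, Hist1h2be and Hist1h2bp the length behind FPKM was 774, 2510 and 646 bases, against RefSeq gene lengths of 8282, 37455 and 14079. Whether such models take in reads of more than 1 copy, or of transcripts longer than the usual form, was not tested.

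Promoter sequence was available from RefSeq (GRCm38.p6) for 61 members, as windows of 250 bases before to 50 bases after the annotated start. The windows printed here belong to the testis-type pair with the lowest PRO-seq ratios of KO to WT, to the highest nascent members of the H4 and H2B types, and to members whose RNA was called. Capitals mark, on either strand, the octamer ATTTGCAT, the TATA box TATAAA, the CCAAT box, the GGTCCG element of H4 promoters and the AAACACA element of H1 promoters.
Hist1h2ba (chr13:23934107-23934406, minus strand): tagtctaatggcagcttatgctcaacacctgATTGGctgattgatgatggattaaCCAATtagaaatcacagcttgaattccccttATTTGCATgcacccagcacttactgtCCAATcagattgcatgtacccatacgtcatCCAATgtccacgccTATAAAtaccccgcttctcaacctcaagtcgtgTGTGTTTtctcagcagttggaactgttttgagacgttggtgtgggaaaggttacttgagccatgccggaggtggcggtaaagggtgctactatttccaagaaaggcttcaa
Hist1h2aa (chr13:23934187-23934486, plus strand): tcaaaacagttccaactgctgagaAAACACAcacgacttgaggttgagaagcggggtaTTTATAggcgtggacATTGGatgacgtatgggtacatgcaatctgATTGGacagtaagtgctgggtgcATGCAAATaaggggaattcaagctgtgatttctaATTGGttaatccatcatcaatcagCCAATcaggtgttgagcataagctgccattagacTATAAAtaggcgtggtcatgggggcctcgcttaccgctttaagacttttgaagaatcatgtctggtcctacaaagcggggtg
Hist4h4 (chr6:136804382-136804681, minus strand): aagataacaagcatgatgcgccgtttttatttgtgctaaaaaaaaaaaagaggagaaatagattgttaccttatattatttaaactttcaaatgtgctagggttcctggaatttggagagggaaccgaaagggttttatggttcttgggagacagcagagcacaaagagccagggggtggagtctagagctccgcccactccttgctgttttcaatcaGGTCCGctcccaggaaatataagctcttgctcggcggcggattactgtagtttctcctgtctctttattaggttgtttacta
Hist2h2bb (chr3:96269450-96269749, plus strand): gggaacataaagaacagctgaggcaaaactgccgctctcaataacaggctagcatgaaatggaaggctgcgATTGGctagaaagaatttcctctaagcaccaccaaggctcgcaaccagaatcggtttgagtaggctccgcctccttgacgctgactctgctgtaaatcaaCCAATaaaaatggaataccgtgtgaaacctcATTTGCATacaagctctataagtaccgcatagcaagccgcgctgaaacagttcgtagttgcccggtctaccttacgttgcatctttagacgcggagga
Hist1h4i (chr13:22041313-22041612, minus strand): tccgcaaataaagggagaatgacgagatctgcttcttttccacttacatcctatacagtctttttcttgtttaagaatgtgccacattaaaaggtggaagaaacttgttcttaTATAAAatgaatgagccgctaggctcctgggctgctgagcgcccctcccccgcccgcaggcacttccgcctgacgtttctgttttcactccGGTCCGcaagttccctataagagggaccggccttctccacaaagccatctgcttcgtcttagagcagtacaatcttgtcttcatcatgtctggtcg
Hist1h1c (chr13:23738557-23738856, plus strand): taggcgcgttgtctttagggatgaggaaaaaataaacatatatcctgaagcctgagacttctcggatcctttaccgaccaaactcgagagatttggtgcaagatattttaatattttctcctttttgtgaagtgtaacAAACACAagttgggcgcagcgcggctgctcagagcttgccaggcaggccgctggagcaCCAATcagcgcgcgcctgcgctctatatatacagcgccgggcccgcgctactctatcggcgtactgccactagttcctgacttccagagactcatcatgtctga

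The promoter windows separated by histone type. The CCAAT box was in all 6 H1, 17 H2A, 16 H2B and 10 H3 windows but in 3 of 12 H4 windows, against 37.4% of all 32851 RefSeq windows. GGTCCG was in 11 of 12 H4 windows and in 2 windows of other members, against 8.25% of all windows. The octamer, a binding site of OCT1 in H2B promoters, was in 6 of 16 H2B and 7 of 17 H2A windows and in none of the H1, H3 and H4 windows, against 1.74% of all windows. AAACACA was in 5 of 6 H1 windows, against 7.18% of all, and TATAAA was in 35 of 61 member windows, against 13.6% of all. A match is a stretch of letters and not a shown binding site. H2A and H2B genes that start back to back formed 9 divergent pairs among these windows, 8 of them with values, at 164 to 281 bases between starts, so the windows of a pair overlap. The octamer was in the H2A windows of 3 such pairs and in the H2A windows of 4 members outside them.

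By PRO-seq FPKM the clustered histone genes ranked among the highest genes of the stem cell. FPKM divides by length, and the median length of the members is 483 bases, so this is not a rank by reads. The median member had 92.6 FPKM in KO cells and 105 FPKM in WT cells, at percentile 99.0 of all symbols in KO and 99.1 in WT. Of all genes, 220 reached 100 FPKM in KO cells and 34 of these were members, and 221 did in WT cells, with 35 members. Hist4h4, an H4 gene that stands alone on chromosome 6, was the highest member, with 994 and 714 FPKM in KO libraries, against 1265 and 804 FPKM in WT libraries. The linker histone genes Hist1h1a, Hist1h1d and Hist1h1b came next among the members. Hist1h1a had 849 and 745 FPKM in KO libraries, against 1026 and 906 FPKM in WT libraries. The highest core members of other types by mean were Hist2h2bb, Hist2h2ac and Hist1h3c, at 620, 401 and 253 FPKM in KO cells and 736, 421 and 263 FPKM in WT cells.

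Steady-state RNA of the same genes was scarce at day 0. The median member had 0.789 FPKM in KO cells and 0.535 FPKM in WT cells, at percentile 52.6 of all symbols in KO and 49.8 in WT, and 31 members in KO cells and 20 in WT cells reached 1 FPKM. All members together took 0.595 to 0.879% of the reads of a PRO-seq library but 0.00184 to 0.00457% of an RNA library, or 537 to 1405 reads. The labels call the RNA total RNA and do not say whether poly(A) selection was used. Spearman's rho between PRO-seq and RNA levels across the members above 0 in both was 0.16 over 59 members in KO cells and 0.07 over 57 in WT cells, as a description, with each axis sharing its libraries. Just 3 members reached 5 FPKM in RNA in either genotype, namely Hist1h2bc, Hist3h2a and Hist1h4i. Hist1h2bc, an H2B gene, had 7.92 and 8.10 FPKM in KO cells, against 10.0 and 6.53 FPKM in WT cells. Hist3h2a, the H2A gene of the small cluster on chromosome 11, had 3.54 and 7.34 FPKM in KO cells, against 4.81 and 7.89 FPKM in WT cells. Both genes' genotypes overlapped.

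**Figure D1:**
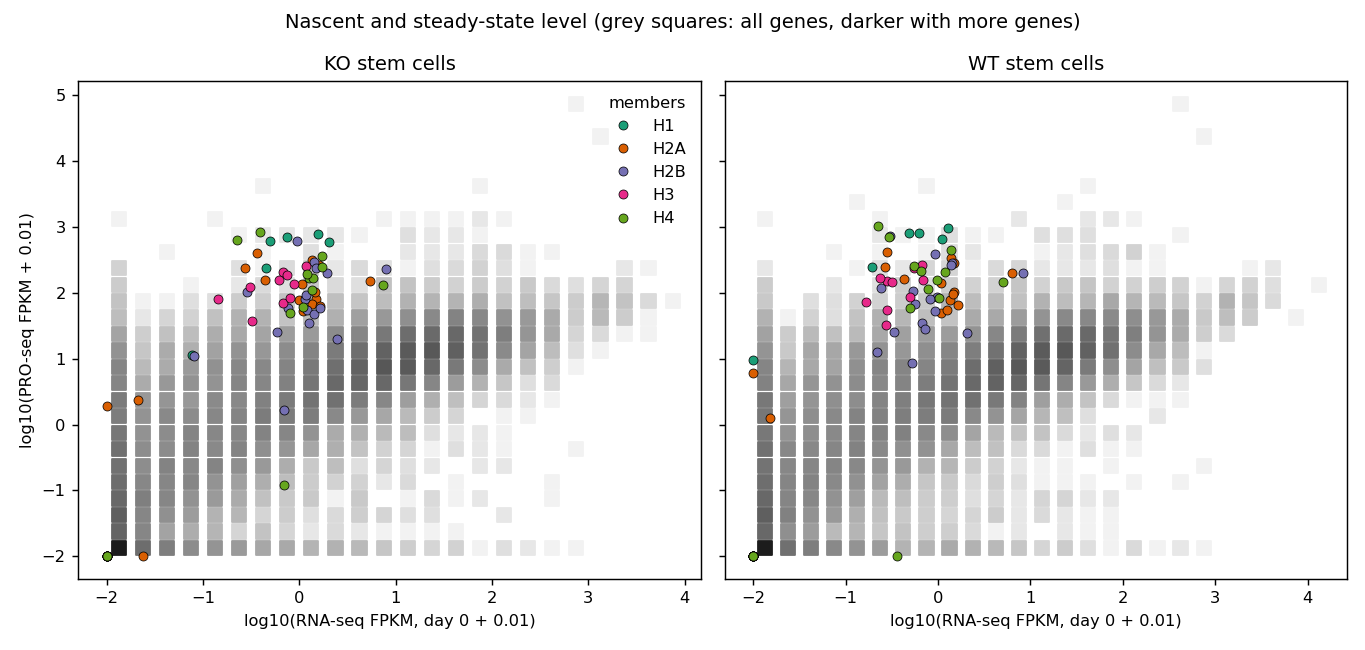
PRO-seq level (log10 of FPKM + 0.01) against day 0 RNA level (log10 of FPKM + 0.01) in KO and WT stem cells, each point a member coloured by histone type and grey squares all genes. Most members lie near the top of the PRO-seq axis with an RNA level around 1 FPKM, and the 8 members listed at 0 sit in the lower left corner.

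The genes that replace bulk histones outside S phase make mostly ordinary polyadenylated mRNA. The 17 of them in the tables had a median of 12.9 FPKM in KO PRO-seq and 15.1 FPKM in KO day 0 RNA, against 15.3 FPKM in WT PRO-seq and 19.7 FPKM in WT day 0 RNA. H2afz, encoding H2A.Z, had 39.7 and 33.9 FPKM in KO PRO-seq libraries, against 41.4 and 39.7 FPKM in WT PRO-seq libraries. In day 0 RNA, H2afz had 1105 and 1263 FPKM in KO cells, against 1364 and 1226 FPKM in WT cells. H2afx, whose mRNA can end either way, was high in both assays, with 310 and 323 FPKM in KO PRO-seq and 85.0 and 108 FPKM in KO RNA, against 359 and 348 FPKM in WT PRO-seq and 111 and 113 FPKM in WT RNA.

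KO and WT nascent levels were compared next. Of 59 members tested in PRO-seq, Hist1h2ba was called lower and none was called higher, where called means a limma Benjamini-Hochberg adjusted p under 0.05, and 0.832% of all 14535 genes tested were called lower and 0.667% higher. Hist1h2ba encodes TH2B, an H2B form of testis and oocyte. Hist1h2ba had 1.85 and 1.45 FPKM in KO libraries, against 11.0 and 5.95 FPKM in WT libraries. Both KO libraries lay below both WT libraries, on 14 and 12 reads in KO and 96 and 44 reads in WT. Its log2 fold change on the log2(FPKM + 1) scale, which understates changes of low genes, was -1.79 (SE 0.26, adjusted p = 0.0388). The call was lost without WT replicate 1 (adjusted p = 0.0549) and without either KO library (adjusted p = 0.0802 and 0.106), and over 11 alternatives the adjusted p lay between 0.0055 and 0.106.

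The divergent partner of Hist1h2ba is Hist1h2aa, encoding TH2A, and their starts lie 281 bases apart. Hist1h2aa had 2.52 and 1.27 FPKM in KO libraries, against 8.43 and 3.75 FPKM in WT libraries, again without overlap. Its log2 fold change of -1.24 (SE 0.35) did not pass (adjusted p = 0.152), but it passed in a weighted fit of the recovered reads (voom) over genes with at least 10 reads (adjusted p = 0.0483, with 0.0075 to 0.388 over 10 alternatives). In the other 7 pairs with values the log2 ratio of PRO-seq means lay between -0.46 and 0.68. Among germ cell markers, 8 were tested in PRO-seq, with a median log2 fold change of -0.37, and 1 was called lower. This was Tex11, a gene of meiosis, with 0.555 and 0.333 FPKM in KO libraries, against 2.09 and 2.23 FPKM in WT libraries. The third testis-type member, the linker histone gene Hist1h1t, had 10.2 and 12.7 FPKM in KO libraries, against 9.09 and 9.69 FPKM in WT libraries, and did not pass (adjusted p = 0.378).

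In PRO-seq the side on which most of the bulk members lay turned on 1 library. Of 59 members above 0 in both genotypes, 16 had a higher mean in KO and 43 a lower one, with a median log2 ratio of -0.14, against 0.00041 over all 19456 such genes. Both KO libraries lay below both WT libraries for 14 members (20.3% of 69, against 23.8% of all genes with a value) and above them for 5 (7.25%, against 23.2%). Here and for RNA, member shares are over all 69, those listed at 0 included, while 60 members had a value in PRO-seq. The member shares are thus somewhat low beside those of all genes. Beside this, replicate 1 exceeded replicate 2 for 45 of 60 members in KO and 53 of 59 in WT, with median ratios of 1.13 and 1.36, against 1.01 over all genes in both genotypes. The part of this library difference in the result was not tested. The summed FPKM of all members was 12279 and 10903 in KO libraries, against 14567 and 11596 in WT libraries. The log2 ratio of the means was -0.17, and -0.00063 without WT replicate 1. In the fit across all genes the median log2 fold change of 59 tested members was -0.10, with 16 higher in KO. Without WT replicate 1 it was 0.09, with 36 of 59 higher.

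By histone type, the H1 sum was the type that separated the genotypes in PRO-seq, with 2988 and 2921 in KO libraries, against 3541 and 3465 in WT libraries. Its log2 ratio was -0.25. Hist1h1b had 630 and 608 FPKM in KO libraries, against 799 and 845 FPKM in WT libraries, with a log2 fold change of -0.41 (SE 0.21, adjusted p = 0.388). Hist1h1a and Hist1h1d also had both KO libraries lower, while Hist1h1c and Hist1h1e overlapped. Sums of H2A, H2B, H3 and H4 members overlapped between genotypes. H4 members summed to 3210 and 2780 in KO libraries, against 4021 and 2848 in WT libraries. Among other members without overlap, Hist1h2bn did not pass at -0.46 (SE 0.13, adjusted p = 0.155) nor did Hist1h4k at -0.45 (SE 0.14, adjusted p = 0.174). Hist1h2bf, at 0.68 (SE 0.19, adjusted p = 0.157), Hist1h2al, a pseudogene by its RefSeq symbol, at 0.60 (SE 0.13, adjusted p = 0.0821), and Hist1h3e, at 0.34 (SE 0.14, adjusted p = 0.289), lay on the higher side and did not pass. With voom on the recovered reads Hist1h2al passed (adjusted p = 0.0236, with 0.0173 to 0.288 over 10 alternatives), and so did Hist1h2bf (adjusted p = 0.0485, with 0.0129 to 0.471 over 11 alternatives). Both also passed with the replicate number as a block, at adjusted p = 0.0321 and 0.0129.

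**Figure D2:**
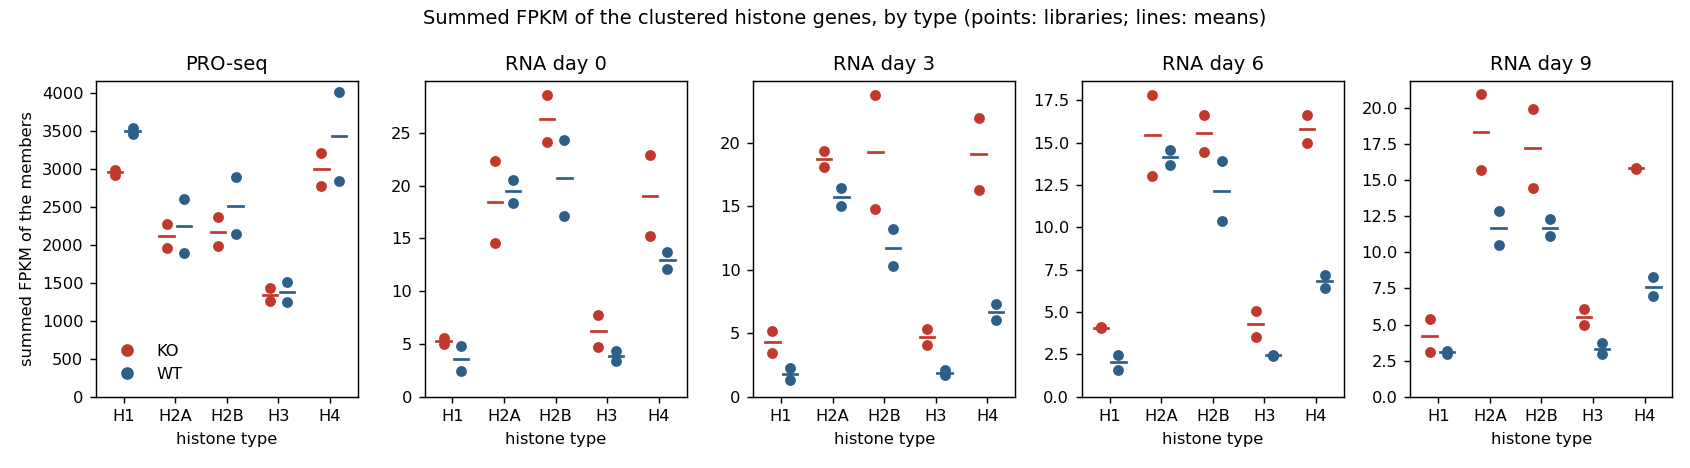
Summed FPKM of the members of each histone type in PRO-seq and in the 4 RNA tables, with KO left of WT, points for libraries and lines for means. In PRO-seq the 4 H1 points separate by genotype with KO lower, and in RNA the H4 points of KO lie above those of WT at every day.

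In RNA most members had a higher mean in KO than in WT at every day. At day 0 none of 27 tested members was called, against 1.40% of 11318 genes called higher and 1.93% lower. By unadjusted limma p under 0.05, 4 of the 27 members passed, all higher, against 1753 of the 11318 genes in either direction. Members entered by their mean over KO and WT libraries, so one low in WT, such as Hist1h4c, could enter through its KO values. At day 0, 31 members reached 1 FPKM in KO cells and 20 in WT cells. The part of this filter in the shared direction was not tested. Voom on the recovered reads also called 0 members. Of 58 members above 0 in both genotypes at day 0, 46 had a higher KO mean, with a median log2 ratio of 0.30, against 0.01 over all genes. Both KO libraries lay above both WT libraries for 28 of 69 members (40.6%, against 21.6% of all genes with a value) and below for 2, Hist1h2ac and Hist3h2bb-ps (2.90%, against 20.6%). The summed FPKM was 64.1 and 86.7 in KO libraries, against 65.6 and 55.6 in WT libraries, and the genotypes overlapped. The log2 ratio of these sums was 0.32, and 0.08 without KO replicate 2. Among tested members without overlap Hist1h4c differed most and missed the threshold. It had 1.33 and 2.11 FPKM in KO libraries, against 0.742 and 0.348 FPKM in WT libraries, with a log2 fold change of 0.81 (SE 0.21, adjusted p = 0.0916).

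The log2 ratio of the summed FPKM was larger at day 3, at 0.80, than at days 0, 6 and 9, at 0.32, 0.55 and 0.71, and the difference between days was not tested for the sums. Without KO replicate 1 the day 3 ratio was 0.58, below that of day 9. At day 3, 4 of 18 tested members were called higher and none lower, against 9.75% of 11088 genes called higher and 11.5% lower. The level filter takes the mean over KO and WT libraries, so a member low in WT can enter through its KO values. This was so for Hist1h4k, Hist1h1c and Hist1h2bj, which were under 1 FPKM in both WT libraries. The part of the filter in the direction of the calls was not tested. Both KO libraries lay above both WT libraries for 39 members (56.5%, against 28.8% of all genes with a value) and below for none (against 29.7%). The summed FPKM was 75.6 and 56.7 in KO libraries, against 41.3 and 34.4 in WT libraries, and 54 of 58 members had a higher KO mean.

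Hist1h4i, an H4 gene, led the called members. At day 3 Hist1h4i had 10.0 and 6.26 FPKM in KO libraries, against 2.78 and 2.51 FPKM in WT libraries, on 124 and 73 reads in KO and 34 and 29 in WT. Its log2 fold change was 1.30 (SE 0.20, adjusted p = 0.0138). Hist1h4k, a second H4 gene, had 1.99 and 1.52 FPKM in KO libraries, against 0.565 and 0.170 FPKM in WT libraries, at 1.02 (SE 0.18, adjusted p = 0.0191). The WT values of Hist1h4k rest on 7 and 2 reads. Hist1h1c, encoding the linker histone H1.2, had 2.34 and 1.53 FPKM in KO libraries, against 0.956 and 0.577 FPKM in WT libraries, at 0.73 (SE 0.19, adjusted p = 0.0433). Hist1h2bj had 1.29 and 1.53 FPKM in KO libraries, against 0.693 and 0.731 FPKM in WT libraries, at 0.49 (SE 0.12, adjusted p = 0.0404). None of the 4 was called without WT replicate 1 or without WT replicate 2, where the remaining WT library is assumed to vary like the KO libraries. Calls over all genes also fell in these fits. With no filter on level these 4 members were not called and 4 others with fewer reads were, namely Hist1h2ba, Hist1h3c, Hist1h3e and Hist1h4b.

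At day 6, Hist1h4i was the called member of 11 tested, against 5.40% of 11184 genes called higher and 7.92% lower. It had 5.75 and 6.58 FPKM in KO libraries, against 2.86 and 3.22 FPKM in WT libraries, with a log2 fold change of 0.83 (SE 0.12, adjusted p = 0.0111). Both KO libraries lay above both WT libraries for 29 members (42.0%, against 27%) and below for 2, Hist1h2ac and Hist1h2bf (2.90%, against 27.6%). Hist1h2ac had 0.814 and 1.01 FPKM in KO libraries, against 1.25 and 1.53 FPKM in WT libraries, at -0.32 (SE 0.13, adjusted p = 0.152). The summed FPKM was 53.7 and 56.5 in KO libraries, against 39.0 and 36.2 in WT libraries.

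At day 9, Hist1h4i and Hist1h2bc were called higher of 17 tested, against 1.94% of 11420 genes called higher and 3.52% lower. Hist1h4i had 5.96 and 7.03 FPKM in KO libraries, against 2.71 and 2.79 FPKM in WT libraries, at 1.00 (SE 0.14, adjusted p = 0.0170). Hist1h2bc had 4.91 and 4.83 FPKM in KO libraries, against 2.65 and 2.63 FPKM in WT libraries, at 0.69 (SE 0.13, adjusted p = 0.0389). Both KO libraries lay above both WT libraries for 29 members (42.0%, against 25.1%) and below for 2, Hist1h2be and Hist2h2be (2.90%, against 25.5%). The summed FPKM was 61.8 and 60.4 in KO libraries, against 35.3 and 39.6 in WT libraries. No member call at day 6 or day 9 held without WT replicate 1 or without WT replicate 2, and calls over all genes also fell in these fits.

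**Figure D3:**
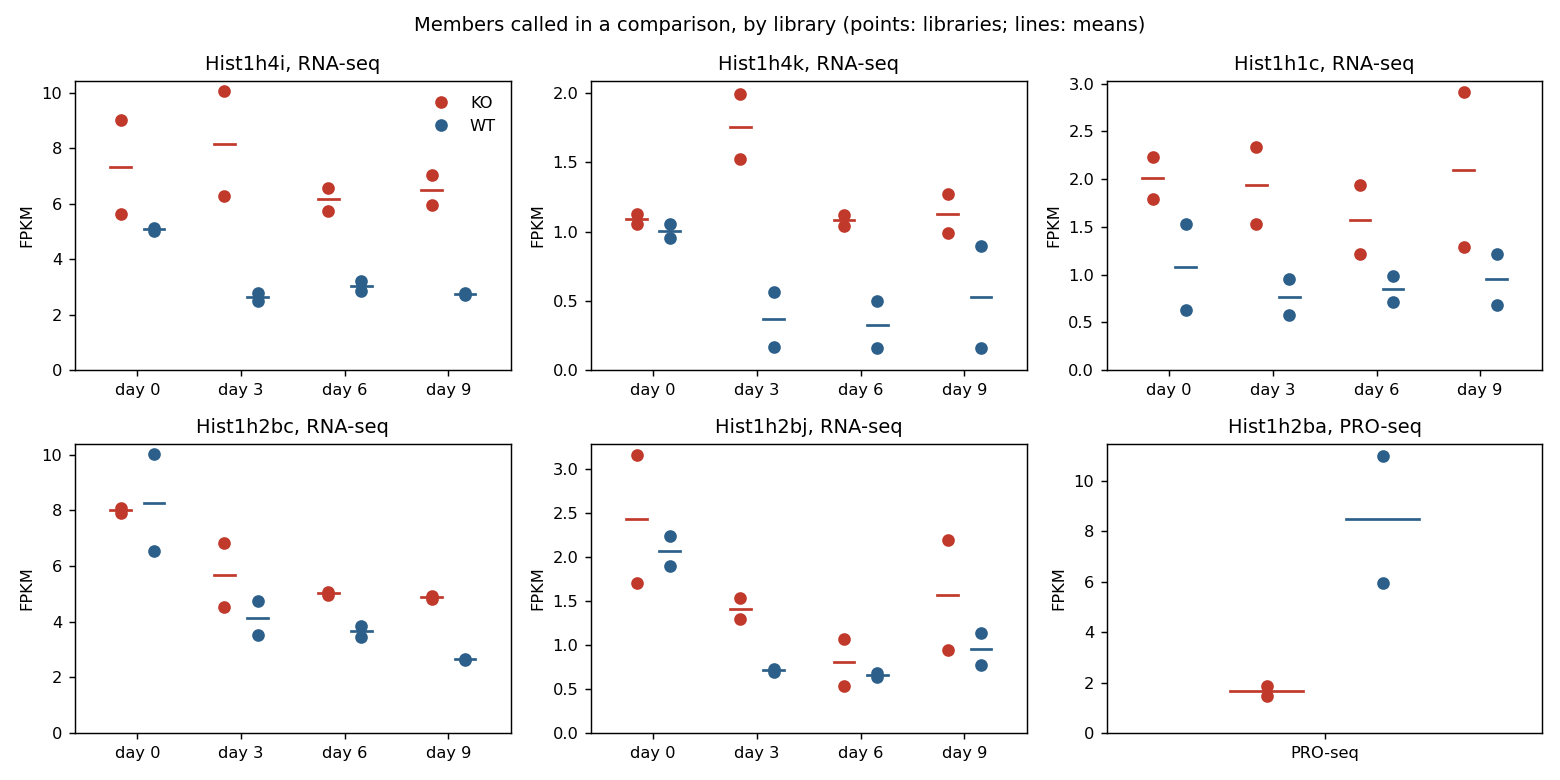
FPKM of the 6 members called in a comparison, by library, with KO left of WT. Hist1h4i separates the genotypes at all 4 RNA days and most at day 3, and Hist1h2ba in PRO-seq lies at 1.85 and 1.45 FPKM in KO and at 11.0 and 5.95 FPKM in WT.

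By type, the log2 ratio of sums at days 3, 6 and 9 was largest for H4, at 1.52, 1.21 and 1.05. Without WT replicate 1 the H1 ratio was above that of H4 at day 3, at 1.73 against 1.66, and at day 6, at 1.35 against 1.13. H4 members summed to 21.9 and 16.3 FPKM in KO day 3 libraries, against 7.34 and 6.03 FPKM in WT day 3 libraries. At day 6 the H4 sums were 15.0 and 16.6 in KO, against 6.43 and 7.21 in WT, and at day 9 they were 15.9 and 15.8 in KO, against 6.97 and 8.30 in WT. Both KO libraries exceeded both WT libraries for 11 of 13 H4 members at day 3 (84.6%, against 28.8% of all genes with a value). At days 6 and 9 this held for 8 H4 members (61.5%, against 27% and 25.1% of all genes with a value). Of the 6 H1 members it held for 5 at day 3 (83.3%), 4 at day 6 (66.7%) and 2 at day 9 (33.3%). H3 sums differed likewise at day 3, with 5.32 and 4.04 in KO, against 2.08 and 1.73 in WT, and so did H1 sums, with 5.21 and 3.45 in KO, against 2.25 and 1.30 in WT. H2A members differed least at day 3, with sums of 19.4 and 18.1 in KO, against 16.5 and 15.1 in WT. Hist3h2a, which supplies much of the H2A sum, had 5.01 and 4.15 FPKM in KO day 3 libraries, against 5.13 and 4.18 FPKM in WT day 3 libraries. No H3 member reached the level needed for testing on any day, and the H3 sums rest on 25 to 118 reads per RNA library, so the H3 difference is a description.

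A group of 11 members had both KO libraries above both WT libraries at each of days 3, 6 and 9, and no member had them below at each. They were 5 H4 genes (Hist1h4b, Hist1h4c, Hist1h4h, Hist1h4i and Hist1h4k), the H3 genes Hist1h3c and Hist1h3f, the H2A genes Hist1h2ab and Hist1h2ae, Hist1h1c, and Hist1h2ba. They are 15.9% of the members, against 10.9% of all genes, and 11.4% of all genes lay below at each of these days. Hist1h2ba, which fell in PRO-seq, had 6 and 6 reads in KO day 3 libraries, against 2 and 2 reads in WT day 3 libraries. Its partner Hist1h2aa was listed at 0 at day 0 and day 3 in every library.

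**Figure D4:**
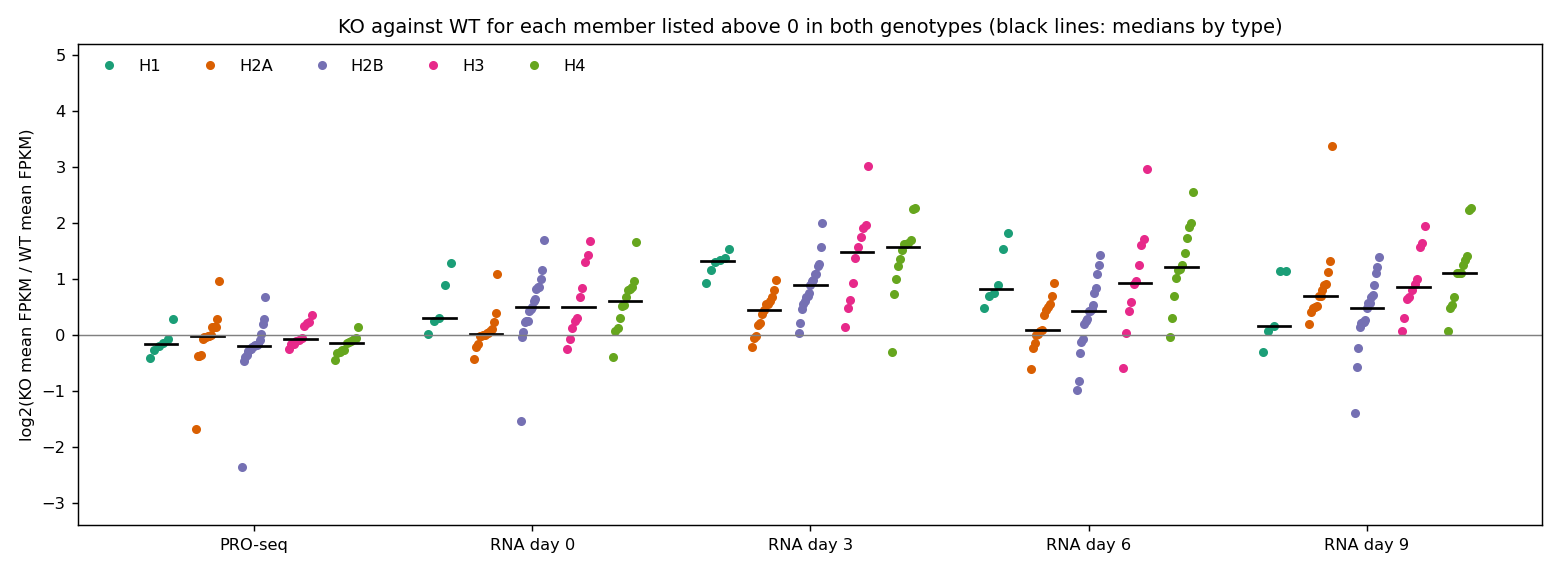
Log2 of KO mean FPKM over WT mean FPKM for each member above 0 in both genotypes, by table and histone type, with black lines for medians by type. PRO-seq medians lie at or just below 0 and RNA medians at or above 0, with H4 and H3 highest at day 3. Points of low members rest on few reads.

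The KO effect in PRO-seq was then set against that in day 0 RNA in 1 model, to ask whether the effects in PRO-seq and in RNA differed. None of 27 members passed, nor did any of the 10837 genes tested (0.00% called). By unadjusted p under 0.05, 8 members and 458 genes passed, all 8 members with the lower effect in PRO-seq. Genes entered at a mean of 1 FPKM or more in each assay, taken over KO and WT libraries. A member low in WT RNA, such as Hist1h2bn, could thus enter through its KO RNA. The part of this filter in the shared direction was not tested. Hist1h2bn had the lowest p of the members, with a difference of -0.99 (SE 0.19, adjusted p = 0.424). Hist1h2bn had 53.6 and 64.7 FPKM in KO PRO-seq libraries, against 81.8 and 81.0 FPKM in WT PRO-seq libraries, and in day 0 RNA 1.78 and 1.45 FPKM in KO cells, against 0.932 and 0.681 FPKM in WT cells. Hist1h4i, called in RNA from day 3, had 142 and 124 FPKM in KO PRO-seq libraries, against 168 and 121 FPKM in WT PRO-seq libraries, with overlap. PRO-seq was made in stem cells, so nascent levels at days 3, 6 and 9 were not measured.

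The KO effect at days 3, 6 and 9 minus that at day 0 was called for none of 17 members at any day, against 1.34%, 1.92% and 2.01% of 11368 genes. By unadjusted p under 0.05 there were 2, 0 and 1 of the 17 members, against 1628, 1695 and 1902 of the 11368 genes. Hist1h4i at day 3 had a difference of 0.88 (SE 0.28, adjusted p = 0.157) and Hist1h2bc at day 9 of 0.70 (SE 0.26, adjusted p = 0.197). Since the day 0 libraries serve in all these differences, they are not independent of each other. A p that misses the threshold does not show that the effect was the same on all days.

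Genes that act on histone transcripts and on the cell cycle were counted beside the members. Among 22 genes of histone transcription and stem-loop processing, 3 rose and 2 fell at day 3, and none was called in PRO-seq or on another day. Over all genes tested at day 3, 9.75% were called higher and 11.5% lower. Npat, the S phase activator of histone transcription, fell at day 3, with 10.3 and 10.3 FPKM in KO libraries, against 13.1 and 13.1 FPKM in WT libraries (log2 fold change -0.32, SE 0.07, adjusted p = 0.0353). Slbp, the stem-loop binding protein, had 51.5 and 53.8 FPKM in KO day 3 libraries, against 45.6 and 47.9 FPKM in WT day 3 libraries, and did not pass (adjusted p = 0.126). The median log2 fold change of this list lay between -0.01 and 0.02 in the 5 tables. Of 30 genes of S phase and DNA replication, 3 rose (Rrm1, Rrm2 and Tk1) and 1 fell (Pole) at day 3 and none was called elsewhere, with medians between -0.02 and 0.07. Of 16 genes of G2 and mitosis, 3 rose at day 3 and Bub1 fell at day 6. Of 11 genes of cell cycle exit, 9 were tested at days 0, 3 and 6 and 10 at day 9. At day 3, Btg2, Cdkn1a, Cdkn1c and Cdkn2b rose while Ccng2, Cdkn1b and Cdkn2a fell. At day 6, Btg2 and Cdkn1a rose and none fell. At day 9, Btg2, Ccng1, Cdkn1a and Cdkn1c rose and Ccng2 fell, at day 0 only Btg2 was called, higher, and in PRO-seq none of 11 was called. The cell cycle inhibitor Cdkn1a at day 3 had 71.6 and 66.7 FPKM in KO libraries, against 34.3 and 30.1 FPKM in WT libraries.

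Other RNAs without a standard poly(A) tail were set beside the histone genes, as a list added after the member values were seen. Of its 5 genes tested at each RNA day, none was called higher, and Rmrp, the RNA of RNase MRP, was called lower at day 6. At day 3 Rmrp had 3.44 and 4.02 FPKM in KO libraries, against 5.04 and 2.41 FPKM in WT libraries. At day 9 Rpph1, the RNA of RNase P, had 3.20 and 2.20 FPKM in KO libraries, against 4.37 and 13.4 FPKM in WT libraries. At day 0, replicate 1 stood far above replicate 2 in both genotypes: Rpph1 had 46.9 and 9.75 FPKM in KO libraries, against 61.4 and 11.1 FPKM in WT libraries. Pluripotency markers moved with genotype at days 3 and 6. At day 3, 8 of 12 were called lower and 1 higher, and they summed to 3835 and 5225 FPKM in KO, against 6585 and 7568 FPKM in WT. At day 6, 5 were called lower and 1 higher, and at day 9 none was called, with overlapping sums of 3077 and 4808 FPKM in KO, against 4346 and 5634 FPKM in WT. Germ cell markers were called lower for 8 of 9 tested at day 3, 8 of 9 at day 6 and 7 of 10 at day 9, with none higher. At day 0, 4 of 10 were called lower and Tex101 higher. The germ cell sums at day 3 were 28.3 and 32.6 FPKM in KO, against 76.7 and 88.3 FPKM in WT. Endoderm markers summed to 7.65 and 4.85 FPKM in KO day 3 libraries, against 3.47 and 4.74 FPKM in WT day 3 libraries. Of these markers, 1 of 10 was at 1 FPKM or more in every day 3 library. The 1 marker tested at day 3, Sox7, was called lower in KO, with a log2 fold change of -0.67. Blood and endothelial markers at day 3 summed to 16.4 and 18.3 in KO, against 30.4 and 27.9 in WT, with 3 of 9 at 0. At day 6 the endoderm sums were 34.5 and 9.57 FPKM in KO, against 2.22 and 3.33 FPKM in WT, with Cubn and Gata4 called higher of 3 tested, and at day 9 Afp and Cubn were called higher of 7. The part of changed cell makeup in the histone RNA difference was not tested, and in these bulk samples fewer cells of a type and less RNA per cell cannot be told apart.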

How the data were processed

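Tables of FPKM (fragments per kilobase of gene and library size) for PRO-seq and for RNA-seq at days 0, 3, 6 and 9 were used as deposited by the authors. Per the submitters' processing notes, TopHat, Bowtie 1.1.2, cutadapt 1.14, Trimmomatic 0.33 and DESeq2 were used, with builds mm9 and dm3; no source used here gives the strand, multi-mapping or annotation settings. Peak lists were not used here.

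All non-zero FPKM values were whole multiples of 1 read per gene length (100% within 0.01 reads), which gave the reads on genes; intervals from such reads would cover counting error only. Genes averaging 1 FPKM or more were tested per table with limma 3.58.1 (R 4.3.3; trend, 2-sided, Benjamini-Hochberg) on log2(FPKM + 1), called at an adjusted p under 0.05, 2 KO against 2 WT libraries. An exact permutation test of 2 against 2 cannot give a p under 0.333 and was not run. Differences of the KO effect were fitted over 8 or 16 libraries. The tests were checked on simulated data. Each RNA day is its own table, so levels are compared within a day. Ranks and percentiles cover all 24508 symbols.

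Members and lists were chosen with earlier results of these data known. Named members were those called, the highest per assay and type, up to 5 per comparison and direction with the largest change and no overlap, the testis-type genes, and neighbours of these. Of the members, 68 matched 1 RefSeq gene, whose GRCm38 table was used for names and promoters only. Alternatives were another pseudocount, other filters, TMM scaling, voom on reads, each library left out, a replicate block and a shared spread.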

Additional observations from a re-analysis of the deposited data

Results flagged for a closer look

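Hist2h2bb, an H2B gene of the cluster on chromosome 3, was lower in KO in PRO-seq and higher in KO in day 0 RNA, without overlap of the genotypes. These directions are not particular to it. A lower KO mean in PRO-seq was seen for 43 of 59 members, and a higher one in day 0 RNA for 46 of 58. Hist1h2bn also had no overlap in either assay, in the same directions. In PRO-seq Hist2h2bb had 664 and 575 FPKM in KO libraries, against 779 and 694 FPKM in WT libraries, a log2 ratio of means of -0.25. In day 0 RNA it had 1.22 and 0.669 FPKM in KO libraries, against 0.188 and 0.397 FPKM in WT libraries, a log2 ratio of 1.69 on 18 and 10 reads in KO and 3 and 6 in WT. The difference between the assays was not tested for this gene, because its mean RNA level lay under the 1 FPKM needed. At days 3, 6 and 9 its RNA overlapped between genotypes. Groups of 2 libraries are too small for the check of single outlying samples.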

How the results depend on the processing

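Counts of called members moved with the processing. The counts in the main analysis were 1 in PRO-seq and 0, 4, 1 and 2 in RNA at days 0, 3, 6 and 9. With no filter on level they were 0 in PRO-seq and 0 at day 9. With voom on the recovered reads they were 3 in PRO-seq, 2 at day 3 and 0 at day 9, and with voom over genes of at least 10 reads, an alternative chosen after seeing the data, 6 in PRO-seq, 2 at day 6 and 0 at day 9. With a mean of at least 5 FPKM day 3 had 1. With the spread shared over 16 libraries day 0 had 1 and day 3 had 2. Calls over all genes moved as well in some of these settings. In PRO-seq the main analysis called 97 of 14535 genes higher and 121 lower, and voom on the recovered reads 427 and 423. Voom over genes of at least 10 reads called 599 and 802 of 18158 in PRO-seq. At day 9 the main analysis called 221 genes higher and 402 lower, and voom on the recovered reads 205 and 398. With no filter on level no gene was called in PRO-seq or at day 9. The cause was not tested.

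Leaving out 1 library gave 0 to 1 in PRO-seq, 0 to 1 at day 0, 0 to 8 at day 3, 0 to 3 at day 6 and 0 to 3 at day 9; for the difference between day 3 and day 0 it gave 0 to 1, and the other differences stayed at 0. Calls over all genes also moved between these fits. The 8 member calls, 1 in PRO-seq and 7 in RNA, kept their sign under every alternative run. With the replicate number as a block, counts were 5 in PRO-seq, 6 at day 0, 7 at day 3 and 3 at day 6. Over all genes the block called 737 higher and 553 lower of 14535 in PRO-seq. At day 0 it called 1048 higher and 959 lower of 11318. The deviations of same-numbered libraries correlated at 0.25 to 0.57. The labels name no shared batch, and whether the replicate number pairs the samples is not given. The log2 ratio of the summed FPKM at day 9 was 0.58 as a share of all reads, in place of 0.71, and 1 member lay below WT at day 0 among those with at least 10 reads; both were chosen after seeing the data. Depth limits the RNA results: all members together had 537 to 1405 reads per library.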

Other observations

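Within a genotype, the RNA sums followed different levels over the days, as a description across separately normalized tables. In KO the summed FPKM of all members averaged 75.4 at day 0, 66.1 at day 3, 55.1 at day 6 and 61.1 at day 9, and in WT it averaged 60.6, 37.9, 37.6 and 37.4 on those days. Hist1h4i in WT had 5.14 and 5.02 FPKM at day 0 and 2.78 and 2.51 FPKM at day 3.

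Among the replication-independent histone genes, the macroH2A genes H2afy and H2afy2 were called lower in KO at days 3, 6 and 9. At day 9, H2afy had 25.0 and 32.5 FPKM in KO libraries, against 55.4 and 76.7 FPKM in WT libraries, with a log2 fold change of -1.17 (SE 0.19, adjusted p = 0.0264), and H2afy2 had 6.13 and 3.80 FPKM in KO libraries, against 12.7 and 16.1 FPKM in WT libraries. H3f3b, encoding H3.3, was called higher at days 3 and 6, and at day 3 had 346 and 347 FPKM in KO libraries, against 268 and 258 FPKM in WT libraries. None of these genes was called in PRO-seq or in day 0 RNA.

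Hist1h4n had 11 and 19 reads in KO day 0 RNA libraries, against 7 and 9 in WT day 0 RNA libraries, but 3 reads over all 4 PRO-seq libraries. The length behind its FPKM, 732 bases, differs from the 406 bases of its RefSeq gene.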
